A study of Homo sapiens with 12 samples.

Results

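The 43 genes described here encode the mitotic spindle, its checkpoint and the kinases that drive cells through mitosis. They were taken by gene name from a fixed list, which was chosen with earlier results of these data known. All 43 were found among the 58233 genes of the count table. Poly(A)+ RNA was sequenced from 2 established human lymphoma lines, OCI-LY3 and VAL, both grown from diffuse large B-cell lymphomas and each treated with 300 nM AZ5576, a selective inhibitor of the transcriptional kinase CDK9, for 3 h or 6 h. Untreated cells taken when the inhibitor was added (0 h) are the controls in the labels, whereas the text of the series speaks of vehicle. Every group, defined by line and hours of inhibitor, had 2 libraries (6 groups, 12 libraries). The labels do not say that the libraries of a group came from separate cultures, so p-values measure the spread between these libraries only. OCI-LY3 libraries were run on a different lane from VAL libraries, so lane and line cannot be told apart, and the VAL libraries numbered 1 are marked in the labels as resubmitted.

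Entry into mitosis is driven by CDK1 bound to cyclin A or cyclin B, with the Aurora and Polo-like kinases acting on centrosomes, kinetochores and the spindle. Kinetochores that lack microtubules signal through TTK, BUB1, BUB1B and MAD2L1 to hold back CDC20, the activator of the anaphase-promoting complex, until every chromosome is attached. The transcripts of these genes are known to peak in G2 and mitosis and to fall to low levels in G1. This periodic transcription is controlled at the promoter by the MuvB-based complexes DREAM and MYBL2-FOXM1, which act through the CHR element, and by NF-Y, which binds CCAAT boxes. In RNA from a whole culture, fewer cells in mitosis and less mRNA per cell cannot be told apart.

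Promoter sequences are shown for members whose levels the results turn on, with the CHR core (TTTGAA, either strand) and the CCAAT box (either strand, read as ATTGG on the reverse) in capitals. Each line gives the 150 bases that end just before the start of transcription, 5′ to 3′ on the gene's strand, from RefSeq on build GRCh38.p14. On the main scaling described below, CCNB2, CDC20, CDCA8, CENPA, KIF23, PLK4 and KNSTRN fell in at least 1 line, whereas PRC1, MAD2L1 and NUF2 did not fall in either.
CCNB2: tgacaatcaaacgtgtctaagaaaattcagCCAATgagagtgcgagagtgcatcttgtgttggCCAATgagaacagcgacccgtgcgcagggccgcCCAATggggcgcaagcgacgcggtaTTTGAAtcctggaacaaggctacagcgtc
CDC20: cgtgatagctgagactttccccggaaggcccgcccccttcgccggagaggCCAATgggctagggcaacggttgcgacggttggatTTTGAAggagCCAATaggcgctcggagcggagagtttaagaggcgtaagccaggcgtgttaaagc
CDCA8: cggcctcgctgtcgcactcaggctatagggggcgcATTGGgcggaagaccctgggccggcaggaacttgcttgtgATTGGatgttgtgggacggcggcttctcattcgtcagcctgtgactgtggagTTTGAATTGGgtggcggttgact
CENPA: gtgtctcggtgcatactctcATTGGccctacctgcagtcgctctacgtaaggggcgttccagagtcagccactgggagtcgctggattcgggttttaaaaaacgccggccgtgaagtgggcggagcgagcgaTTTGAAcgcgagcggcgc
KIF23: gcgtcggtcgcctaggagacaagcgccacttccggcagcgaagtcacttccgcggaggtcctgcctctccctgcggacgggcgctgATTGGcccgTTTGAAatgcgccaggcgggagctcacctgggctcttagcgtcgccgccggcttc
PLK4: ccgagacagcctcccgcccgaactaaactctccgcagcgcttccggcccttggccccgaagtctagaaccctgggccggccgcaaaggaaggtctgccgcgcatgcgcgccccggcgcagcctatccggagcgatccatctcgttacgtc
KNSTRN: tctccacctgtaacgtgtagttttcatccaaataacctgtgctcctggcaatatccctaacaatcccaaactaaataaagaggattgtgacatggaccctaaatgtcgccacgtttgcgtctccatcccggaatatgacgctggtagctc
PRC1: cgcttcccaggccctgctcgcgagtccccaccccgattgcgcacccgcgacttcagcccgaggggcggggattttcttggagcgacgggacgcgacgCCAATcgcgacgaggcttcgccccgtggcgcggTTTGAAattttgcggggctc
MAD2L1: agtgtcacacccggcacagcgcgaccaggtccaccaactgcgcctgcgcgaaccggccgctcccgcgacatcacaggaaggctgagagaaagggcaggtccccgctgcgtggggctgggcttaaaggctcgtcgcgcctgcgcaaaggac
NUF2: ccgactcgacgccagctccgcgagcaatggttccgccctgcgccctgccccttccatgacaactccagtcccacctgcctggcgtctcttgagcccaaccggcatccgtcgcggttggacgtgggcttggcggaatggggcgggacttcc
CCNB2 lies at chr15:59104996-59105145 (+), CDC20 at chr1:43358831-43358980 (+), CDCA8 at chr1:37692366-37692515 (+) and CENPA at chr2:26785906-26786055 (+). The KIF23 stretch is chr15:69414199-69414348 (+), that of PLK4 is chr4:127880743-127880892 (+) and that of KNSTRN is chr15:40382571-40382720 (+). The PRC1 stretch is chr15:90994536-90994685 (-), that of MAD2L1 is chr4:120066849-120066998 (-) and that of NUF2 is chr1:163321804-163321953 (+). In CCNB2 the CHR core began 29 bases before the start and the nearest CCAAT box 54 bases before it. PRC1, whose level was higher after treatment on the main scaling, had a CHR core 20 bases before the start and a CCAAT box 53 bases before it. In CDCA8 the CHR core and the third CCAAT box share bases. The stretches of PLK4, KNSTRN, MAD2L1 and NUF2 held neither motif, and the first matches of PLK4, MAD2L1 and NUF2 to the CHR core lay downstream of the start.

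A RefSeq window of 250 bases before to 50 bases after the start was at hand for 37 of the 43 members and is not given here for AURKA, TTK, BIRC5, TPX2, UBE2C and FOXM1. Of the 37, 27 (73.0%) held TTTGAA on either strand, against 18.2% of all 27305 genes with a window. CCAAT on either strand stood in 30 (81.1%), against 39.7% of all genes, and both motifs in 22 (59.5%), against 7.26%. Counting only 100 bases before to 50 after the start, 25 of the 37 members (67.6%) held TTTGAA, against 8.46% of all genes. CENPE, KIF2C and KNSTRN held neither motif. A match describes these letters and is not a binding site. Only these exact letters were counted, so a window without them is not shown to lack a CHR element or a site for NF-Y.

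Levels are given as CPM, counts scaled to a common library size, with TMM factors, and changes as log2 differences between groups ± their standard error from 1 edgeR quasi-likelihood fit over all 12 libraries. A change was called at an adjusted p (Benjamini-Hochberg) under 0.05 over the 16374 genes tested. All 43 members passed the filter on low counts, and the lowest raw count of a member in any library was 39 reads, for TTK. Library totals ranged from 23175082 to 39715536 reads. Spread between the libraries of a group differed: over all tested genes OCI-LY3 had median absolute log2 differences of 0.07 at 0 h, 0.17 at 3 h and 0.13 at 6 h, while VAL had 0.07, 0.35 and 0.35. The share of counts on 80 ribosomal protein mRNAs was 8.89 to 9.18%, 12.1 to 13.4% and 15.2 to 15.4% in OCI-LY3 at 0 h, 3 h and 6 h, and 11.3 to 11.4%, 14.7 to 17.7% and 19.1 to 22.6% in VAL. The share on 13 mitochondrially encoded mRNAs was likewise higher after treatment in both lines and was 2.31%, 4.50% and 5.26% in OCI-LY3 at 0 h, 3 h and 6 h, and 1.84%, 3.92% and 6.02% in VAL. B cell markers summed to between 4090 and 9660 CPM in every library, with CD74 the largest part. At 6 h 5 of these 8 rose and 2 fell in OCI-LY3, against 28.1% and 33.4% of all tested genes. In VAL 6 rose and 2 fell, against 34.0% and 32.2%. The group mean of CD79B went from 604 CPM at 0 h to 262 CPM at 6 h in OCI-LY3 and from 1010 to 240 CPM in VAL. T and NK cell markers summed to at most 2.46 CPM and erythroid markers to at most 0.151 CPM. Of 7 myeloid markers, ELANE was at 0 in all libraries while the sum in OCI-LY3 was 0.587 to 0.610 CPM at 0 h, 1.86 to 2.37 CPM at 3 h and 15.4 to 16.2 CPM at 6 h, and in VAL 0.255 to 0.262, 0.717 to 0.915 and 8.93 to 16.4 CPM, most of the sum at 6 h being MPO and CD14. Epithelial and stromal markers reached 104 CPM in OCI-LY3 through COL1A1 and at most 1.27 CPM in VAL, with KRT18 and KRT19 at 0 in all libraries. The part of these shares and markers in the results below was not tested.

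Most of the 43 mitotic genes were lower after 6 h of inhibitor in both lines, and a smaller number already at 3 h. In OCI-LY3 14 members fell and 3 rose at 3 h, where 24.3% of all tested genes fell and 17.8% rose. These counts at 3 h depended on the spread shared with VAL. With each line fitted alone, 24 fell and 9 rose at 3 h in OCI-LY3, while 14 fell and 1 rose in VAL. Shares of all tested genes were not computed for this fit or for the fits with libraries left out. Their counts therefore stand without a background. With library 1 of VAL dropped at both 3 h and 6 h, or library 2 at both, the counts in OCI-LY3 were 26 and 9. The members that passed at 3 h in OCI-LY3 only then, in both of these fits, were PLK1, NEK2, BUB1B, INCENP, CENPE, CENPF, ASPM, UBE2C, ECT2, CEP55, TOP2A and MKI67 as lower, and CCNB2, BUB1, BIRC5, NUSAP1, DLGAP5 and FOXM1 as higher, on this scaling. By 6 h, 29 members had fallen and 5 had risen in OCI-LY3, against 33.4% and 28.1% of all tested genes. In VAL 18 members fell and 7 rose at 3 h, where 25.1% of all tested genes fell and 29.6% rose. At 6 h 34 members were lower and 1 was higher in VAL, against 32.2% and 34.0% of all tested genes. The members' median log2 change for OCI-LY3 was -0.20 at 3 h, reaching -0.94 by 6 h, beside medians over all genes of 0.00 and -0.01. In VAL the members' median was -0.30 at 3 h and -1.19 at 6 h, beside 0.16 and 0.10 over all genes. The summed level of the 43 members was 6440 ± 28.6, 5560 ± 80 and 4360 ± 56.5 CPM in OCI-LY3 at 0 h, 3 h and 6 h, and 7110 ± 36.2, 6300 ± 190 and 4140 ± 176 CPM in VAL (SD, n = 2). The libraries at 6 h lay below those at 0 h without overlap for 35 members and above for 6 in OCI-LY3, against 44.1% and 40.2% of all genes, and for 35 and 4 in VAL, against 39.5% and 42.5%. Falls of at least 2-fold at 6 h were seen in 18 members in OCI-LY3 (21.8% of all genes) and in 25 members in VAL (22.0% of all genes). The 4 largest falls at 6 h in both lines were those of TTK, AURKA, KNSTRN and PLK4, and the largest rise at 6 h was 0.67 on the log2 scale, for PTTG1 in OCI-LY3, which turned negative with scaling to mitochondrially encoded or ribosomal protein mRNAs.

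**Figure D1:**
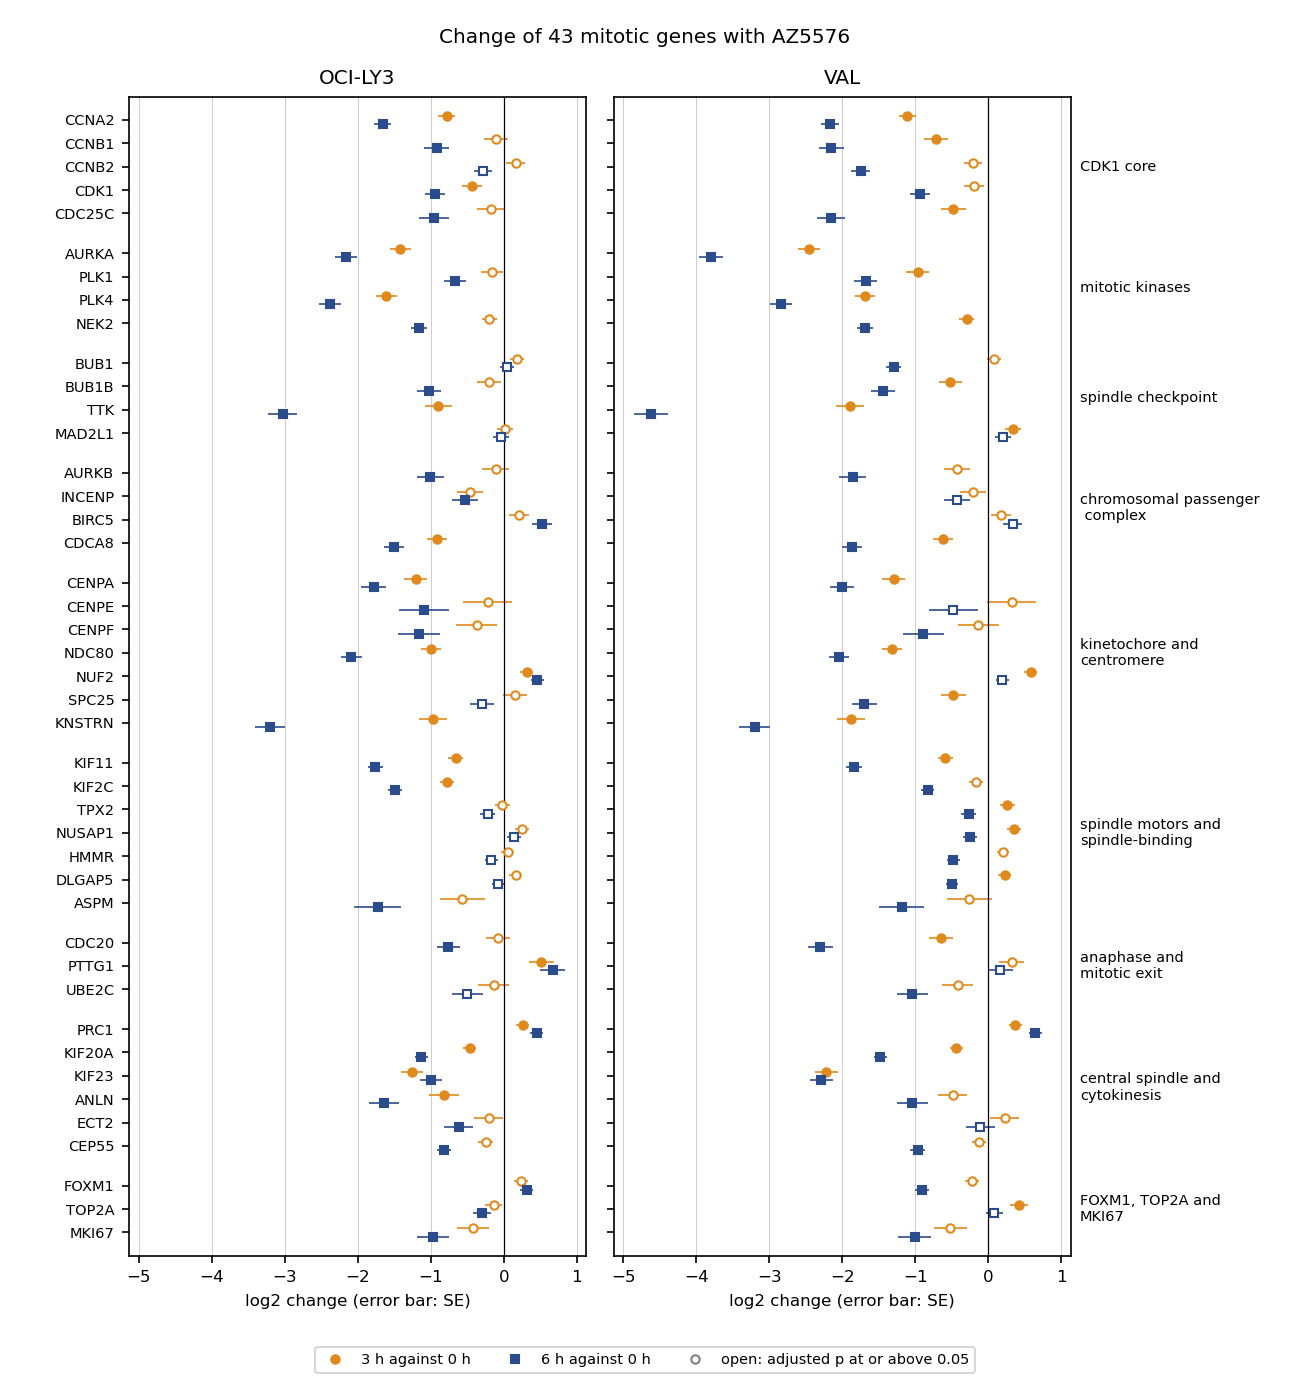
Log2 change (x axis, error bars SE) of each of the 43 members after 3 h (circles) and 6 h (squares) of AZ5576 against 0 h in OCI-LY3 (left) and VAL (right), grouped by role. Filled symbols passed an adjusted p of 0.05; the 6 h symbols of TTK lie at -3.03 in OCI-LY3 and -4.62 in VAL, and PRC1 lies above 0 throughout, though its sign turned with scaling to mitochondrially encoded or ribosomal protein mRNAs.

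Scaling moved all genes together and the members with them. Relative to the median of all tested genes, the members' median at 6 h lay between -0.95 and -0.87 in OCI-LY3 and between -1.37 and -1.25 in VAL under the 6 scalings tried. At 3 h this distance was -0.24 to -0.19 in OCI-LY3 and -0.48 to -0.45 in VAL. The medians of all tested genes at 6 h themselves ran from -1.55 to 0.45 in OCI-LY3 and from -2.06 to 0.46 in VAL over those scalings, so the split of calls moved. In OCI-LY3 12 members were lower and 12 higher at 3 h with upper-quartile factors, against 17.5% and 32.4% of all tested genes. With DESeq2 size factors 13 were lower and 7 higher, against 21.4% and 23.4%. Without a composition factor the counts were 18 and 0, against 29.7% and 10.9%. At 6 h in OCI-LY3 19 were lower and 11 higher with upper-quartile factors, against 21.4% and 42.9% of all tested genes. Without a composition factor these were 38 and 0, against 42.5% and 18.5%. In VAL 14 were lower and 10 higher at 3 h with upper-quartile factors, against 21.8% and 36.9% of all tested genes. Without a composition factor 28 were lower and 1 higher at 3 h, against 34.2% and 13.4%. At 6 h in VAL 29 were lower and 6 higher with upper-quartile factors, against 24.6% and 45.3%. With scaling to mitochondrially encoded or ribosomal protein mRNAs no member was higher against 0 h in either line, and all 43 were lower at 6 h in both. Of all tested genes 71.9% and 63.1% were lower at 6 h in OCI-LY3 with these scalings in turn, and 82.5% and 63.8% in VAL. Between 2.19% and 7.17% of all tested genes were higher against 0 h with them. With TMM factors 11 members were lower in all 4 comparisons with 0 h. They were CCNA2, AURKA, PLK4, TTK, CDCA8, CENPA, NDC80, KNSTRN, KIF11, KIF20A and KIF23. All 11 kept their calls in these 4 comparisons when any 1 library was left out. Members lower at 6 h in both lines numbered 25, which is 86.2% of those lower in OCI-LY3 and 73.5% of those lower in VAL. The shares of all tested genes that meet these joint rules were not computed, so these counts stand without a background. MAD2L1, BIRC5, NUF2, PTTG1 and PRC1 were lower in none of the 4 with TMM factors.

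In the CDK1 core, made up of the kinase, its cyclins and its activating phosphatase, OCI-LY3 had 2 of 5 genes lower at 3 h and 4 by 6 h. In VAL 3 fell at 3 h and all 5 at 6 h. Of all tested genes 24.3% and 33.4% were lower at 3 h and 6 h in OCI-LY3, and 25.1% and 32.2% in VAL. CCNA2 encodes cyclin A2, which works with CDK2 in S phase and with CDK1 at the onset of mitosis. In OCI-LY3 CCNA2 had 251 and 256 CPM at 0 h, 145 and 150 CPM at 3 h and 80.4 and 79.9 CPM at 6 h. VAL held CCNA2 at 170 and 161 CPM at 0 h, 70.8 and 82.8 CPM at 3 h and 32.8 and 40.6 CPM at 6 h. Each step down was outside the range of the step before in both lines. Set against 0 h, CCNA2 showed log2 changes of -0.78 ± 0.12 (adjusted p = 0.000316) at 3 h and -1.66 ± 0.12 (adjusted p = 7.42e-07) by 6 h in OCI-LY3; VAL gave -1.11 ± 0.12 (adjusted p = 2e-05) at 3 h and -2.17 ± 0.12 (adjusted p = 1.33e-07) by 6 h. CCNB2, a mitotic B-type cyclin, followed a different course in the lines. In OCI-LY3 CCNB2 had 119 and 125 CPM at 0 h, 141 and 131 CPM at 3 h and 101 and 99.9 CPM at 6 h. VAL held CCNB2 at 150 and 149 CPM at 0 h, 114 and 145 CPM at 3 h and 40.7 and 48.3 CPM at 6 h. In VAL the 6 h libraries lay far below all others, and in OCI-LY3 the 3 h libraries lay above and the 6 h libraries below those at 0 h without a call. For CCNB2 the log2 change in OCI-LY3 was 0.16 ± 0.12 (adjusted p = 0.331) at 3 h, then -0.28 ± 0.12 (adjusted p = 0.0748) by 6 h, while VAL gave -0.21 ± 0.12 (adjusted p = 0.177) at 3 h, then -1.75 ± 0.13 (adjusted p = 7.06e-07) by 6 h. CCNB1, the main cyclin partner of CDK1, changed by -0.92 ± 0.17 at 6 h in OCI-LY3 and by -2.15 ± 0.18 in VAL. CDC25C, the phosphatase that activates CDK1, changed by -0.96 ± 0.20 and -2.16 ± 0.19 at 6 h in OCI-LY3 and VAL, and its exons overlap FAM53C on the other strand, as those of CCNA2 overlap EXOSC9, in libraries whose kit does not keep strand. CDK1 itself fell by 0.94 ± 0.14 on the log2 scale at 6 h in each line.

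All 4 mitotic kinases were lower at 6 h in both lines, as were 33.4% of all tested genes in OCI-LY3 and 32.2% in VAL. AURKA and PLK4 were at least 2-fold lower by 3 h, as were 14.2% of all tested genes in OCI-LY3 and 15.9% in VAL. AURKA encodes Aurora A, which builds the spindle poles. In OCI-LY3 AURKA had 68.8 and 69.2 CPM at 0 h, 26.9 and 24.8 CPM at 3 h and 15 and 15.9 CPM at 6 h. VAL held AURKA at 109 and 109 CPM at 0 h, 17.7 and 22 CPM at 3 h and 8.93 and 6.66 CPM at 6 h. Groups did not overlap in either line, and the VAL libraries ended below the OCI-LY3 libraries after starting above them. AURKA had log2 changes of -1.42 ± 0.14 (adjusted p = 1.69e-05) at 3 h and -2.16 ± 0.15 (adjusted p = 5.56e-07) by 6 h in OCI-LY3, beside -2.46 ± 0.15 (adjusted p = 3.82e-07) at 3 h and -3.80 ± 0.16 (adjusted p = 4.75e-08) by 6 h in VAL. PLK4 encodes the kinase that starts centriole duplication. In OCI-LY3 PLK4 had 45.2 and 45.9 CPM at 0 h, 15.3 and 14.5 CPM at 3 h and 8.66 and 8.88 CPM at 6 h. VAL held PLK4 at 56.6 and 57 CPM at 0 h, 17.7 and 17.5 CPM at 3 h and 9.31 and 6.52 CPM at 6 h. No library overlapped those of another time in either line, and the difference between the changes at 6 h was 0.46 ± 0.20 (adjusted p = 0.123). The log2 change of PLK4 was -1.61 ± 0.14 (adjusted p = 6.47e-06) after 3 h and -2.38 ± 0.15 (adjusted p = 3.38e-07) after 6 h of inhibitor in OCI-LY3, beside -1.69 ± 0.14 (adjusted p = 3.63e-06) after 3 h and -2.84 ± 0.15 (adjusted p = 1.03e-07) after 6 h in VAL. PLK1, the Polo-like kinase of mitotic entry and chromosome attachment, changed by -0.67 ± 0.15 at 6 h in OCI-LY3 and -1.68 ± 0.16 in VAL. NEK2, which separates centrosomes, changed by -1.16 ± 0.11 and -1.69 ± 0.11. Neither PLK1 nor NEK2 passed at 3 h in OCI-LY3 in the fit over both lines, and both did without the treated VAL libraries of either number.

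The spindle checkpoint genes split. TTK encodes MPS1, the kinase at the top of the checkpoint, and showed the largest fall of the 43 members at 6 h in VAL. In OCI-LY3 TTK had 118 and 120 CPM at 0 h, 63.4 and 63.8 CPM at 3 h and 14.5 and 14.6 CPM at 6 h. VAL held TTK at 67.6 and 68.8 CPM at 0 h, 16.1 and 20.7 CPM at 3 h and 3.59 and 1.86 CPM at 6 h. The levels fell at each time without overlap, and the 6 h level in VAL was 24.5-fold below 0 h, against 8.16-fold in OCI-LY3. Set against 0 h, TTK showed log2 changes of -0.90 ± 0.18 (adjusted p = 0.00246) at 3 h and -3.03 ± 0.20 (adjusted p = 4.55e-07) by 6 h in OCI-LY3; VAL gave -1.89 ± 0.19 (adjusted p = 1.42e-05) at 3 h and -4.62 ± 0.23 (adjusted p = 7.95e-08) by 6 h. BUB1, the kinase that recruits the other checkpoint proteins to kinetochores, passed against 0 h in VAL at 6 h and in none of the other 3 comparisons in the fit over both lines. In OCI-LY3 BUB1 had 103 and 96.2 CPM at 0 h, 110 and 115 CPM at 3 h and 106 and 98.6 CPM at 6 h. VAL held BUB1 at 146 and 147 CPM at 0 h, 146 and 163 CPM at 3 h and 58.8 and 59.7 CPM at 6 h. The OCI-LY3 libraries stayed between 96.2 and 115 CPM throughout, and the VAL libraries at 6 h lay below all others of that line. For BUB1 the log2 change in OCI-LY3 was 0.18 ± 0.09 (adjusted p = 0.162) at 3 h, then 0.04 ± 0.09 (adjusted p = 0.766) by 6 h, while VAL gave 0.08 ± 0.09 (adjusted p = 0.491) at 3 h, then -1.3 ± 0.10 (adjusted p = 7.43e-07) by 6 h. BUB1B, which encodes the checkpoint protein BUBR1, changed by -1.03 ± 0.16 and -1.44 ± 0.17 at 6 h in OCI-LY3 and VAL. MAD2L1, which binds and holds CDC20, did not fall in any comparison with TMM factors. With scaling to mitochondrially encoded or ribosomal protein mRNAs it was lower at 6 h in both lines, as all 43 members were. In OCI-LY3 MAD2L1 had 191 and 192 CPM at 0 h, 196 and 193 CPM at 3 h and 193 and 180 CPM at 6 h. VAL held MAD2L1 at 158 and 157 CPM at 0 h, 185 and 211 CPM at 3 h and 163 and 198 CPM at 6 h. It rose in VAL at 3 h by 0.33 ± 0.11 (adjusted p = 0.0268), a call that 7 of the 12 single-library exclusions ended and whose sign turned without a composition factor or with scaling to mitochondrially encoded or ribosomal protein mRNAs.

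**Figure D2:**
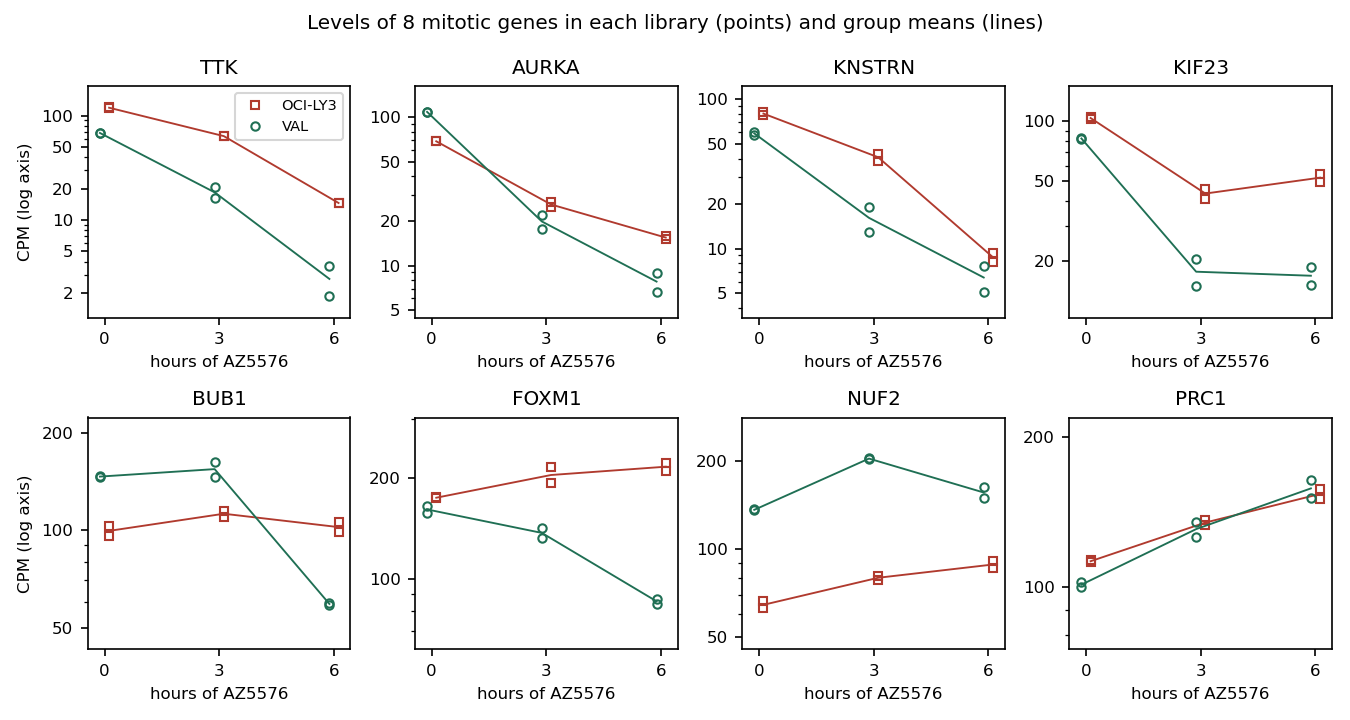
CPM (log axis) of 8 members in each library against hours of AZ5576, with OCI-LY3 as squares and VAL as circles and lines through the group means. TTK, AURKA and KNSTRN fell at each time, and KIF23 fell by 3 h and did not pass between 3 h and 6 h. On this scaling BUB1 and FOXM1 fell in VAL but not in OCI-LY3. NUF2 and PRC1 were higher than at 0 h in some or all comparisons on this scaling. With scaling to mitochondrially encoded or ribosomal protein mRNAs these rises turned negative, and BUB1 and FOXM1 were also lower at 6 h in OCI-LY3.

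Of the chromosomal passenger complex, which corrects faulty attachments and later guides cytokinesis, the kinase and borealin fell while, on this scaling, survivin did not. CDCA8 encodes borealin. In OCI-LY3 CDCA8 had 151 and 153 CPM at 0 h, 81.5 and 79.8 CPM at 3 h and 56 and 50.5 CPM at 6 h. VAL held CDCA8 at 230 and 227 CPM at 0 h, 126 and 171 CPM at 3 h and 58.7 and 66.5 CPM at 6 h. The libraries of the 3 times did not overlap in either line. CDCA8 had log2 changes of -0.91 ± 0.14 (adjusted p = 0.000316) at 3 h and -1.51 ± 0.14 (adjusted p = 4.29e-06) by 6 h in OCI-LY3, beside -0.62 ± 0.14 (adjusted p = 0.0026) at 3 h and -1.87 ± 0.14 (adjusted p = 7.82e-07) by 6 h in VAL. AURKB encodes Aurora B, the kinase of the complex. In OCI-LY3 AURKB had 127 and 130 CPM at 0 h, 123 and 114 CPM at 3 h and 60.2 and 67.1 CPM at 6 h. VAL held AURKB at 186 and 184 CPM at 0 h, 107 and 169 CPM at 3 h and 45.1 and 56.8 CPM at 6 h. The libraries at 3 h lay below those at 0 h without a call in either line, and those at 6 h lay far below both. The log2 change of AURKB was -0.11 ± 0.18 (adjusted p = 0.656) after 3 h and -1.01 ± 0.19 (adjusted p = 0.000674) after 6 h of inhibitor in OCI-LY3, beside -0.43 ± 0.18 (adjusted p = 0.069) after 3 h and -1.86 ± 0.19 (adjusted p = 7.68e-06) after 6 h in VAL. BIRC5 encodes survivin, a subunit of the complex that also acts as an inhibitor of apoptosis. In OCI-LY3 BIRC5 had 238 and 256 CPM at 0 h, 292 and 278 CPM at 3 h and 358 and 348 CPM at 6 h. VAL held BIRC5 at 220 and 224 CPM at 0 h, 218 and 283 CPM at 3 h and 248 and 309 CPM at 6 h. In OCI-LY3 it rose at 6 h by 0.52 ± 0.14 (adjusted p = 0.00643), which leaving out library 1 at 0 h ended (adjusted p = 0.0613) and which became negative with scaling to mitochondrially encoded or ribosomal protein mRNAs. INCENP, the scaffold of the complex, had log2 changes of -0.53 ± 0.18 at 6 h in OCI-LY3 and -0.43 ± 0.18 (adjusted p = 0.0522) in VAL. Leaving out any 1 of the 0 h or 6 h libraries of OCI-LY3 ended its call (adjusted p up to 0.102).

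At the kinetochore, 5 of 7 genes were lower at 6 h in each line, and partners in one complex moved apart. These 71.4% stand against 33.4% of all tested genes in OCI-LY3 and 32.2% in VAL. KNSTRN encodes kinastrin, a small protein of kinetochores and spindle poles. In OCI-LY3 KNSTRN had 78.2 and 82.3 CPM at 0 h, 43.1 and 38.7 CPM at 3 h and 9.35 and 8.13 CPM at 6 h. VAL held KNSTRN at 58.1 and 60.2 CPM at 0 h, 13 and 19.1 CPM at 3 h and 7.64 and 5.14 CPM at 6 h. All libraries lay below 10 CPM at 6 h, and no times overlapped. Set against 0 h, KNSTRN showed log2 changes of -0.97 ± 0.19 (adjusted p = 0.0018) at 3 h and -3.20 ± 0.21 (adjusted p = 4.22e-07) by 6 h in OCI-LY3; VAL gave -1.88 ± 0.20 (adjusted p = 1.69e-05) at 3 h and -3.20 ± 0.21 (adjusted p = 3.51e-07) by 6 h. NDC80 and NUF2 encode the dimer that grips microtubules within the NDC80 complex. In OCI-LY3 NDC80 had 74.1 and 77.6 CPM at 0 h, 40.3 and 35.5 CPM at 3 h and 18.3 and 17.3 CPM at 6 h. VAL held NDC80 at 81.6 and 78.9 CPM at 0 h, 27.6 and 36.6 CPM at 3 h and 18.8 and 19.9 CPM at 6 h. The libraries of the 3 times did not overlap in either line. For NDC80 the log2 change in OCI-LY3 was -1.0 ± 0.13 (adjusted p = 0.00015) at 3 h, then -2.09 ± 0.14 (adjusted p = 5.09e-07) by 6 h, while VAL gave -1.32 ± 0.14 (adjusted p = 1.56e-05) at 3 h, then -2.05 ± 0.14 (adjusted p = 4.4e-07) by 6 h. Its partner NUF2 did not fall below 0 h in either line with TMM factors. In OCI-LY3 NUF2 had 62.8 and 66.3 CPM at 0 h, 81.3 and 78.5 CPM at 3 h and 91.3 and 86.1 CPM at 6 h. VAL held NUF2 at 136 and 137 CPM at 0 h, 204 and 205 CPM at 3 h and 150 and 163 CPM at 6 h. All treated libraries lay above those at 0 h in both lines. NUF2 rose in OCI-LY3 by 0.31 ± 0.09 at 3 h, reaching 0.46 ± 0.09 by 6 h, and by 0.58 ± 0.09 at 3 h in VAL (adjusted p = 0.0174, 0.00104 and 0.000285), each of which turned negative with scaling to mitochondrially encoded or ribosomal protein mRNAs. The change of NUF2 in VAL at 6 h was 0.19 ± 0.09 (adjusted p = 0.0756), and its 3 h call in OCI-LY3 was ended by leaving out any 1 of the 4 libraries compared (adjusted p up to 0.149). NUF2 overlaps exons of RGS5 on the other strand. SPC25, of the same complex, had log2 changes of -0.30 ± 0.17 (adjusted p = 0.148) at 6 h in OCI-LY3 and -1.70 ± 0.17 in VAL. CENPA, the histone H3 variant that marks centromeres, fell in OCI-LY3 by 1.21 ± 0.16 at 3 h, reaching 1.78 ± 0.17 by 6 h, and by 1.3 ± 0.16 and 2.00 ± 0.17 in VAL, on the log2 scale. CENPA shares exon bases with SLC35F6 on the same strand. CENPF, a large protein of the outer kinetochore, changed by -1.16 ± 0.29 and -0.89 ± 0.28 at 6 h in OCI-LY3 and VAL. CENPE, a kinetochore motor, had log2 changes of -1.09 ± 0.34 in OCI-LY3 and -0.48 ± 0.34 (adjusted p = 0.233) in VAL, where its libraries at 6 h held 64.3 and 26.3 CPM. The call in OCI-LY3 was ended by leaving out library 1 at 0 h or either library at 6 h (adjusted p up to 0.0823).

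Of the 7 spindle motors and spindle-binding proteins, OCI-LY3 had 2 lower at 3 h and 3 by 6 h, with a median change of -0.22 at 6 h. These shares, 28.6% and 42.9%, stand against 24.3% and 33.4% of all tested genes. In VAL 3 rose and 1 fell at 3 h, where the 3 rises turned negative under some scalings as given below, and all 7 were lower at 6 h, with a median of -0.50. The 3 rises are 42.9% of the set, against 29.6% of all tested genes, and 32.2% of all tested genes were lower at 6 h in VAL. KIF11 encodes Eg5, the kinesin that pushes the spindle poles apart. In OCI-LY3 KIF11 had 199 and 196 CPM at 0 h, 119 and 130 CPM at 3 h and 57.2 and 59.5 CPM at 6 h. VAL held KIF11 at 183 and 187 CPM at 0 h, 126 and 120 CPM at 3 h and 55.5 and 47.4 CPM at 6 h. The groups were ordered by time without overlap in both lines. KIF11 had log2 changes of -0.66 ± 0.10 (adjusted p = 0.000376) at 3 h and -1.76 ± 0.10 (adjusted p = 2.37e-07) by 6 h in OCI-LY3, beside -0.59 ± 0.10 (adjusted p = 0.00061) at 3 h and -1.84 ± 0.10 (adjusted p = 1.41e-07) by 6 h in VAL. KIF2C encodes MCAK, a kinesin that takes microtubules apart at centromeres. In OCI-LY3 KIF2C had 137 and 136 CPM at 0 h, 80.2 and 78.1 CPM at 3 h and 49 and 48.1 CPM at 6 h. VAL held KIF2C at 196 and 193 CPM at 0 h, 163 and 183 CPM at 3 h and 111 and 107 CPM at 6 h. No times overlapped in either line, and the fall in OCI-LY3 was the deeper one. The log2 change of KIF2C was -0.78 ± 0.09 (adjusted p = 5.16e-05) after 3 h and -1.49 ± 0.09 (adjusted p = 3.21e-07) after 6 h of inhibitor in OCI-LY3, beside -0.17 ± 0.09 (adjusted p = 0.133) after 3 h and -0.83 ± 0.09 (adjusted p = 1.26e-05) after 6 h in VAL. TPX2, which activates Aurora A on spindle microtubules, passed in VAL but not in OCI-LY3. In OCI-LY3 TPX2 had 325 and 324 CPM at 0 h, 308 and 335 CPM at 3 h and 283 and 272 CPM at 6 h. VAL held TPX2 at 263 and 257 CPM at 0 h, 322 and 302 CPM at 3 h and 234 and 197 CPM at 6 h. The VAL libraries lay above 0 h at 3 h and below it at 6 h. In VAL TPX2 was 0.26 ± 0.10 above 0 h at 3 h (adjusted p = 0.0482), negative without a composition factor or with scaling to mitochondrially encoded or ribosomal protein mRNAs, and -0.27 ± 0.10 at 6 h (adjusted p = 0.0374), positive with upper-quartile factors. NUSAP1 bundles spindle microtubules. In OCI-LY3 NUSAP1 had 212 and 214 CPM at 0 h, 259 and 248 CPM at 3 h and 242 and 229 CPM at 6 h. VAL held NUSAP1 at 420 and 413 CPM at 0 h, 505 and 555 CPM at 3 h and 330 and 371 CPM at 6 h. Its VAL changes were 0.35 ± 0.10 at 3 h (adjusted p = 0.0102) and -0.25 ± 0.10 at 6 h (adjusted p = 0.0384), negative and positive under the same scalings as TPX2. The VAL libraries again lay above 0 h at 3 h and below it at 6 h. DLGAP5, which encodes the microtubule-binding protein HURP, was the third to rise at 3 h in VAL. In OCI-LY3 DLGAP5 had 104 and 105 CPM at 0 h, 118 and 116 CPM at 3 h and 101 and 96.8 CPM at 6 h. VAL held DLGAP5 at 106 and 106 CPM at 0 h, 123 and 125 CPM at 3 h and 77.7 and 72.9 CPM at 6 h. The 3 h change of 0.22 ± 0.09 (adjusted p = 0.0445) turned negative without a composition factor and with scaling to mitochondrially encoded or ribosomal protein mRNAs, and DLGAP5 was lower at 6 h by 0.50 ± 0.09 on the log2 scale. The VAL 3 h calls of TPX2 and DLGAP5 were each ended by 10 of the 12 single-library exclusions and that of NUSAP1 by 6, and the VAL 6 h calls of TPX2 and NUSAP1 by 3 each (adjusted p up to 0.17 and 0.148). HMMR, a spindle-pole protein, had log2 changes of -0.17 ± 0.09 (adjusted p = 0.119) and -0.48 ± 0.09 at 6 h in OCI-LY3 and VAL. ASPM, which focuses spindle poles, changed by -1.73 ± 0.32 and -1.19 ± 0.31.

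Among the 3 genes of anaphase and mitotic exit, CDC20 fell in both lines by 6 h and UBE2C fell in VAL at 6 h. On this scaling PTTG1 fell in neither line. CDC20, the activator that the checkpoint restrains, had the highest level per kilobase of exon of the 43 members at 0 h in both lines, 121 CPM per kilobase in OCI-LY3 and 159 in VAL. In OCI-LY3 CDC20 had 241 and 250 CPM at 0 h, 243 and 222 CPM at 3 h and 143 and 148 CPM at 6 h. VAL held CDC20 at 328 and 320 CPM at 0 h, 164 and 249 CPM at 3 h and 61.6 and 70 CPM at 6 h. In OCI-LY3 the libraries at 3 h overlapped those at 0 h and the 6 h libraries lay below both, and in VAL no times overlapped. Set against 0 h, CDC20 showed log2 changes of -0.08 ± 0.16 (adjusted p = 0.742) at 3 h and -0.76 ± 0.16 (adjusted p = 0.00184) by 6 h in OCI-LY3; VAL gave -0.65 ± 0.16 (adjusted p = 0.00579) at 3 h and -2.3 ± 0.17 (adjusted p = 7.19e-07) by 6 h. UBE2C encodes the ubiquitin-conjugating enzyme of the anaphase-promoting complex. In OCI-LY3 UBE2C had 139 and 145 CPM at 0 h, 134 and 124 CPM at 3 h and 101 and 101 CPM at 6 h. VAL held UBE2C at 157 and 152 CPM at 0 h, 88.8 and 143 CPM at 3 h and 59.8 and 90.9 CPM at 6 h. The treated VAL libraries of a time lay far apart and overlapped between 3 h and 6 h, and all lay below those at 0 h. For UBE2C the log2 change in OCI-LY3 was -0.14 ± 0.21 (adjusted p = 0.632) at 3 h, then -0.50 ± 0.21 (adjusted p = 0.0646) by 6 h, while VAL gave -0.42 ± 0.21 (adjusted p = 0.118) at 3 h, then -1.04 ± 0.22 (adjusted p = 0.0014) by 6 h. PTTG1 encodes securin, the inhibitor of separase. In OCI-LY3 PTTG1 had 97.2 and 99.6 CPM at 0 h, 151 and 129 CPM at 3 h and 156 and 158 CPM at 6 h. VAL held PTTG1 at 195 and 188 CPM at 0 h, 200 and 277 CPM at 3 h and 179 and 248 CPM at 6 h. The treated libraries lay above 0 h in OCI-LY3, and in VAL those at 6 h spanned the level at 0 h. Securin mRNA rose in OCI-LY3 by 0.51 ± 0.17 at 3 h and 0.67 ± 0.17 at 6 h (adjusted p = 0.0342 and 0.00558), turning negative with scaling to mitochondrially encoded or ribosomal protein mRNAs; the 3 h call was ended by 6 of the 12 single-library exclusions (adjusted p up to 0.221). Near-identical copies of PTTG1 exist in the genome, and how reads were shared among them is not given in the sources used here.

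Among the genes of the central spindle and cytokinesis, 5 of 6 were lower at 6 h in OCI-LY3 and 4 of 6 in VAL, and PRC1 was higher in both. Of all tested genes 33.4% were lower in OCI-LY3 and 32.2% in VAL. KIF20A encodes MKLP2, the kinesin that carries the passenger complex to the central spindle. In OCI-LY3 KIF20A had 79.7 and 80.7 CPM at 0 h, 57.3 and 58.9 CPM at 3 h and 37.2 and 35.9 CPM at 6 h. VAL held KIF20A at 74.5 and 75.2 CPM at 0 h, 56.8 and 53.3 CPM at 3 h and 27.1 and 26.7 CPM at 6 h. Each time lay below the one before in both lines. KIF20A had log2 changes of -0.47 ± 0.09 (adjusted p = 0.00179) at 3 h and -1.13 ± 0.09 (adjusted p = 1.66e-06) by 6 h in OCI-LY3, beside -0.44 ± 0.09 (adjusted p = 0.00179) at 3 h and -1.48 ± 0.09 (adjusted p = 2.61e-07) by 6 h in VAL. KIF20A overlaps exons of BRD8 and CDC23 on the other strand, so some of its reads could belong to them. KIF23 encodes MKLP1, the kinesin of centralspindlin. In OCI-LY3 KIF23 had 103 and 105 CPM at 0 h, 46.1 and 40.9 CPM at 3 h and 54.7 and 49.8 CPM at 6 h. VAL held KIF23 at 82.7 and 81.6 CPM at 0 h, 14.9 and 20.4 CPM at 3 h and 15.1 and 18.6 CPM at 6 h. In OCI-LY3 the libraries at 6 h lay above those at 3 h, in VAL they overlapped, and all treated libraries lay below 0 h. The change between 3 h and 6 h was 0.26 ± 0.15 in OCI-LY3 (adjusted p = 0.218) and -0.07 ± 0.16 in VAL (adjusted p = 0.814). The log2 change of KIF23 was -1.26 ± 0.15 (adjusted p = 6.09e-05) after 3 h and -1.0 ± 0.15 (adjusted p = 0.000157) after 6 h of inhibitor in OCI-LY3, beside -2.22 ± 0.16 (adjusted p = 1.06e-06) after 3 h and -2.29 ± 0.16 (adjusted p = 4.65e-07) after 6 h in VAL. PRC1, which bundles the antiparallel microtubules of the central spindle, was the only member higher in all 4 comparisons. In OCI-LY3 PRC1 had 112 and 113 CPM at 0 h, 133 and 136 CPM at 3 h and 150 and 157 CPM at 6 h. VAL held PRC1 at 102 and 99.9 CPM at 0 h, 135 and 126 CPM at 3 h and 151 and 164 CPM at 6 h. PRC1 rose in OCI-LY3 by 0.26 ± 0.09 at 3 h and 0.45 ± 0.09 by 6 h, and by 0.37 ± 0.09 and 0.64 ± 0.09 in VAL (adjusted p = 0.0391, 0.00112, 0.00466 and 8.55e-05), all 4 of which turned negative with scaling to mitochondrially encoded or ribosomal protein mRNAs. All treated libraries lay above those at 0 h. Single-library exclusions ended its 3 h calls (8 of 12 in OCI-LY3, adjusted p up to 0.177, and 5 in VAL, up to 0.271) and neither of its 6 h calls. ANLN, the scaffold anillin, changed by -1.64 ± 0.21 at 6 h in OCI-LY3 and -1.04 ± 0.21 in VAL. CEP55, which acts in abscission, changed by -0.82 ± 0.10 and -0.97 ± 0.10. ECT2, which activates RhoA at the cleavage furrow, had log2 changes of -0.62 ± 0.20 in OCI-LY3 and -0.11 ± 0.20 (adjusted p = 0.649) in VAL. The call of ECT2 in OCI-LY3 was ended by leaving out any 1 of its 0 h or 6 h libraries (adjusted p up to 0.0801).

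FOXM1, a transcription factor of G2 and mitotic genes, took opposite directions in the lines, on this scaling. In OCI-LY3 FOXM1 had 175 and 174 CPM at 0 h, 193 and 215 CPM at 3 h and 210 and 222 CPM at 6 h. VAL held FOXM1 at 165 and 157 CPM at 0 h, 132 and 142 CPM at 3 h and 87.1 and 84.1 CPM at 6 h. Its libraries lay above 0 h at both times in OCI-LY3 and below 0 h at both times in VAL. FOXM1 rose by 0.31 ± 0.09 at 6 h in OCI-LY3 (adjusted p = 0.0145), a change that turned negative without a composition factor or with scaling to mitochondrially encoded or ribosomal protein mRNAs, and fell by 0.91 ± 0.10 on the log2 scale at 6 h in VAL (adjusted p = 9.36e-06). The call in OCI-LY3 was ended by leaving out either 0 h library or library 2 at 6 h (adjusted p up to 0.124). FOXM1 overlaps exons of ITFG2 on the other strand. MKI67 encodes Ki-67, the common marker of cycling cells. In OCI-LY3 MKI67 had 411 and 389 CPM at 0 h, 280 and 318 CPM at 3 h and 203 and 207 CPM at 6 h. VAL held MKI67 at 511 and 513 CPM at 0 h, 392 and 320 CPM at 3 h and 329 and 177 CPM at 6 h. All treated libraries lay below 0 h in both lines, and the VAL libraries at 6 h lay far apart. Set against 0 h, MKI67 showed log2 changes of -0.42 ± 0.22 (adjusted p = 0.149) at 3 h and -0.97 ± 0.22 (adjusted p = 0.00291) by 6 h in OCI-LY3; VAL gave -0.52 ± 0.22 (adjusted p = 0.0639) at 3 h and -1.01 ± 0.22 (adjusted p = 0.00198) by 6 h. TOP2A untangles sister chromatids. In OCI-LY3 TOP2A had 517 and 509 CPM at 0 h, 444 and 490 CPM at 3 h and 427 and 407 CPM at 6 h. VAL held TOP2A at 575 and 564 CPM at 0 h, 836 and 684 CPM at 3 h and 645 and 555 CPM at 6 h. At 6 h the VAL libraries overlapped those at 0 h. TOP2A rose by 0.42 ± 0.12 at 3 h in VAL (adjusted p = 0.0119), negative with scaling to mitochondrially encoded or ribosomal protein mRNAs, and changed by -0.30 ± 0.12 at 6 h in OCI-LY3 (adjusted p = 0.0472), positive with upper-quartile factors. Single-library exclusions ended the rise in 6 of 12 fits (adjusted p up to 0.25) and the fall in 7 (up to 0.222).

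Between 3 h and 6 h of inhibitor, 23 members fell and none rose in OCI-LY3, where 16.3% of all tested genes fell and 12% rose. In VAL 29 fell and none rose, against 15.3% and 7.54% of all tested genes. The median change from 3 h to 6 h was -0.57 in OCI-LY3 and -0.74 in VAL, beside 0.00 over all genes in each line. Falls were steepest for KNSTRN (-2.23 ± 0.20) and TTK (-2.13 ± 0.20) in OCI-LY3 and for TTK (-2.73 ± 0.22) and CDC25C (-1.69 ± 0.20) in VAL. Leaving out library 1 at 6 h lowered the count in OCI-LY3 to 14, and leaving out library 1 at 6 h of VAL raised it to 29. With upper-quartile factors 16 fell and 5 rose in OCI-LY3, against 9.71% and 20.7% of all tested genes. With each line fitted alone 33 fell and 3 rose there. The share of all tested genes was not computed for that fit or for those with a library left out. In VAL 8 members that did not pass at 3 h fell both against 0 h and against 3 h at 6 h: AURKB, BUB1, CCNB2, CDK1, CEP55, FOXM1, HMMR and KIF2C. The share of all tested genes with this pattern was not computed.

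Before treatment the lines differed in 18 members. OCI-LY3 had lower levels than VAL at 0 h of 12 members (27.9%) and higher levels of 6 (14%), against 26.5% lower and 29.8% higher over all tested genes. The share lower was thus near that of all genes, and the share higher was below it. The lower ones were CDC25C, NEK2, CENPA, NUF2, NUSAP1, PTTG1, SPC25, AURKA, CDCA8, BUB1, AURKB and KIF2C. CDC25C differed most, with 6.37 and 6.37 CPM in the OCI-LY3 libraries and 18.4 and 19.3 CPM in those of VAL (-1.57 ± 0.18 on the log2 scale). Of the 6 scalings, upper-quartile factors gave 17 lower and 2 higher, against 31.5% and 23.9% of all tested genes. Scaling to ribosomal protein mRNAs gave 9 and 9, against 19.7% and 32.0%. Shares of all tested genes were not computed for fits with libraries left out. Leaving out the treated VAL libraries of either number gave 20 lower and 13 higher. The higher ones were TTK, CCNA2, ANLN, MAD2L1, TPX2 and HMMR, and TTK had 119 ± 1.2 CPM in OCI-LY3 and 68.2 ± 0.81 CPM in VAL (0.80 ± 0.18). Per kilobase of exon, members ranged at 0 h from 1.91 to 121 CPM in OCI-LY3 and from 5.66 to 159 CPM in VAL, with CDC25C lowest and CDC20 highest in both.

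Where the lines differed at 6 h, the change was mostly the less negative one in OCI-LY3. At 3 h the change in OCI-LY3 minus the change in VAL passed for 3 members, higher for AURKA (1.04 ± 0.20) and KIF23 (0.96 ± 0.21) and lower for KIF2C (-0.61 ± 0.13), where 2.73% of all tested genes were higher and 3.30% lower. Leaving out library 1 at 3 h of OCI-LY3 ended all 3 of these calls, and without library 2 at 3 h of VAL 12 members passed as higher. Without the treated VAL libraries numbered 1, 10 passed as higher and 6 as lower, and without those numbered 2, 19 and 10. Shares of all tested genes were not computed for fits with libraries left out, at 3 h or at 6 h, so their counts stand without a background. At 6 h the difference passed as higher, a smaller fall or a rise in OCI-LY3, for 15 members and as lower for KIF2C alone, against 12.3% and 14.4% of all tested genes. Without the treated VAL libraries numbered 1 these counts were 26 and 4, and without those numbered 2, 23 and 9. The 5 with the smallest adjusted p were BUB1 (1.34 ± 0.14, adjusted p = 0.00018), FOXM1 (1.22 ± 0.13, 0.000255), CCNB2 (1.47 ± 0.18, 0.000411), AURKA (1.64 ± 0.21, 0.000514) and CDC20 (1.54 ± 0.23, 0.00113). For BUB1 and CCNB2 the change in OCI-LY3 was within 0.30 of 0 on the log2 scale, whereas VAL fell by more than 2-fold. The difference was 0.00 for KNSTRN, 0.00 ± 0.19 for CDK1, -0.04 ± 0.19 for NDC80, 0.08 ± 0.14 for KIF11 and 0.05 ± 0.31 for MKI67, none of which passed. Of the 16 differences at 6 h, those of CCNA2, CDC25C, NEK2, AURKB, DLGAP5 and KIF2C were each lost when some 1 library was left out. The members' median difference was 0.34, beside -0.04 over all genes, and stayed 0.38 to 0.39 above the median of all genes under the 6 scalings.

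**Figure D3:**
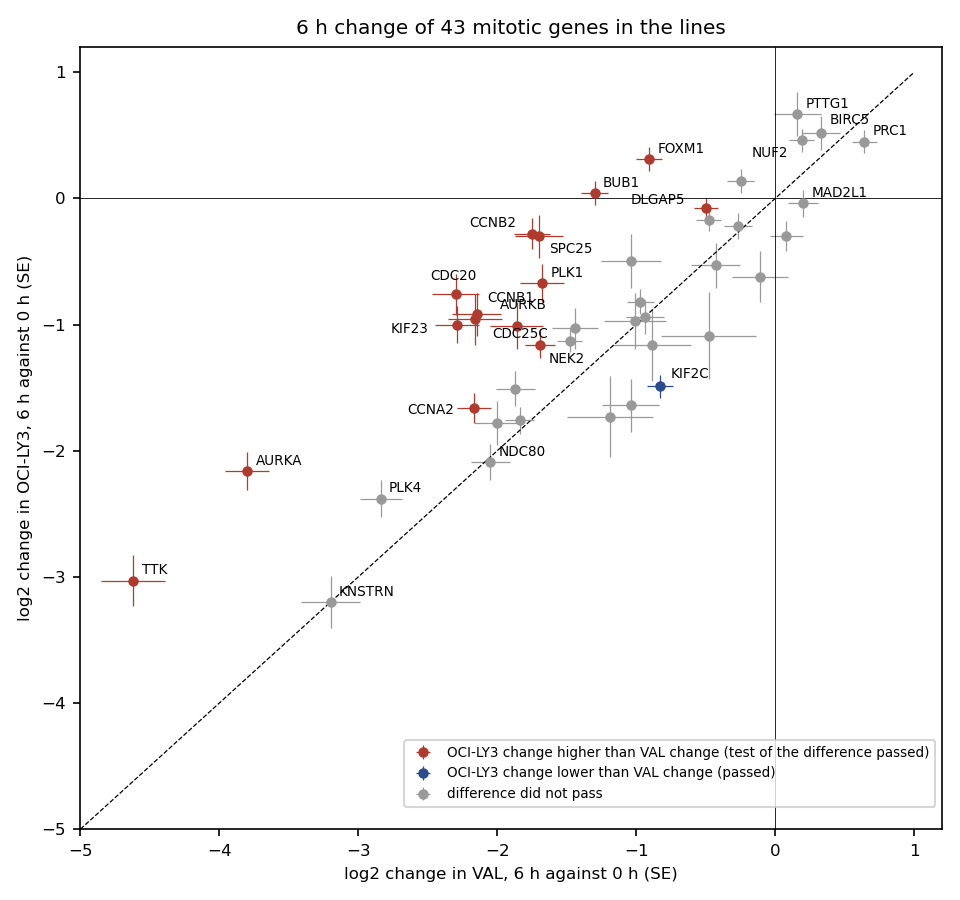
Log2 change at 6 h against 0 h in OCI-LY3 (y axis) and VAL (x axis) of the 43 members, with SE bars and the line of equal change dashed. The 15 red members lie above the dashed line by a difference that passed, from 0.42 for DLGAP5 to 1.64 for AURKA, and KIF2C (blue) lies below it by 0.66; FOXM1, PRC1 and the other members above 0 turned negative with scaling to mitochondrially encoded or ribosomal protein mRNAs.

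Of 97 other genes of mitosis in 6 lists, 53 fell and 13 rose at 6 h in OCI-LY3, and 52 fell and 19 rose in VAL, with medians of -0.66 and -0.49. These are 54.6% and 13.4% of the list in OCI-LY3, where 33.4% of all tested genes fell and 28.1% rose, and 53.6% and 19.6% in VAL, where 32.2% fell and 34.0% rose. By list the share that fell ran from 25.0% for condensin, under the share of all genes, to 69.6% in OCI-LY3 and 66.7% in VAL. The rises named here were all smaller than the shift of all genes with scaling to mitochondrially encoded mRNAs, and so negative there. In the list of mitotic entry and of DREAM and MuvB subunits, 10 of 16 were lower at 6 h in each line, among them LIN54 (-2.34 ± 0.16), a MuvB subunit that contacts the CHR element, and BORA (-1.88 ± 0.14), the activator of Aurora A and PLK1, in OCI-LY3. In VAL BORA was at -1.86 ± 0.14, LIN54 at -1.57 ± 0.16 and CDC25A, a phosphatase that activates CDKs, at -2.02 ± 0.24. WEE1 (0.79 ± 0.12), ENSA (0.56 ± 0.14) and MYBL2 (0.43 ± 0.15) rose in OCI-LY3. In VAL the genes that rose were ARPP19 (0.45 ± 0.09), ENSA (0.65 ± 0.14), CKS1B (0.72 ± 0.16) and LIN52 (0.46 ± 0.11). Of 15 genes of the anaphase-promoting complex and its regulators, 7 fell in OCI-LY3 and 10 in VAL at 6 h, with FZR1, its G1 activator, at -2.31 ± 0.14 and -1.89 ± 0.14. The subunits ANAPC5 (0.86 ± 0.10 and 0.56 ± 0.10) and ANAPC11 (0.83 ± 0.18 and 0.74 ± 0.17) rose in both lines. In the list of other kinetochore and checkpoint genes 12 of 23 fell and 3 rose in OCI-LY3, and 11 fell and 3 rose in VAL. Among those that fell was DSN1, a subunit of the MIS12 complex, at -1.59 ± 0.15 and -1.79 ± 0.15. CENPC, which binds centromeric chromatin, was at -3.24 ± 0.34 and -2.28 ± 0.31. SKA1, which couples kinetochores to microtubules, was at -3.41 ± 0.20 in VAL. The rises were those of CENPK (0.32 ± 0.10), CENPU (0.67 ± 0.17) and CENPW (0.65 ± 0.24) in OCI-LY3 and of KNTC1 (1.33 ± 0.24), CENPK (0.61 ± 0.10) and ZWILCH (0.37 ± 0.09) in VAL. Of 23 other motor, centrosome and centriole genes 16 fell in OCI-LY3 and 12 in VAL, with the kinesin KIF18A at -1.94 ± 0.16 and -2.49 ± 0.16 and the spindle protein CKAP2 at -1.90 ± 0.11 and -1.94 ± 0.11. HAUS1 (0.49 ± 0.20) and HAUS4 (0.39 ± 0.12) rose in OCI-LY3, and HAUS4 (0.94 ± 0.12), KIF4A (0.79 ± 0.11) and KIF18B (0.37 ± 0.10) in VAL. Of 8 condensin genes 2 fell and 2 rose in OCI-LY3, and 2 fell and 4 rose in VAL, with medians of 0.22 and 0.14. NCAPH and NCAPG, of condensin I, fell by 1.38 ± 0.15 and 0.96 ± 0.11 in OCI-LY3 and by 1.78 ± 0.15 and 1.69 ± 0.11 in VAL on the log2 scale. NCAPD2, the other subunit particular to condensin I, rose in both lines (0.44 ± 0.09 and 0.37 ± 0.09), as did NCAPG2 of condensin II (0.54 ± 0.09 and 0.49 ± 0.09). The core subunit SMC2 (0.71 ± 0.13) and NCAPD3 of condensin II (0.34 ± 0.12) rose in VAL. In the cohesin list 6 of 12 fell in OCI-LY3 and 7 in VAL, with the largest falls those of WAPL (-2.06 ± 0.13), which releases cohesin, in OCI-LY3 and of SMC3 (-2.10 ± 0.11), a ring subunit, in VAL. SMC1A, another ring subunit, rose in both lines (0.50 ± 0.16 and 1.04 ± 0.16), and STAG1 (0.94 ± 0.28) and STAG2 (0.51 ± 0.19) rose in VAL. As a further comparison, of 31 S-phase and replication genes 15 fell and 7 rose in OCI-LY3 at 6 h, and 20 fell and 5 rose in VAL, with medians of -0.48 and -0.94. These are 48.4% and 22.6% of that list in OCI-LY3 and 64.5% and 16.1% in VAL, beside the same shares of all tested genes.

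Falls were seen both with and without exact matches to the promoter motifs, and no difference by motif was tested. Members without an exact match may still hold other forms of these elements, which were not counted. Members with TTTGAA in the window (27) had a median change at 6 h of -0.82 in OCI-LY3 and -1.04 in VAL, and those without it (10) had medians of -1.11 and -1.58. Members with CCAAT (30) had medians of -0.87 and -1.39, and those without it (7) of -1.49 and -1.04. The 3 members with neither motif, KNSTRN, CENPE and KIF2C, changed at 6 h by -3.20, -1.09 and -1.49 in OCI-LY3. In VAL they changed by -3.20, -0.48 and -0.83, and CENPE did not pass there. PRC1, which holds both, changed by 0.45 in OCI-LY3 and 0.64 in VAL. Both changes of PRC1 turned negative with scaling to mitochondrially encoded or ribosomal protein mRNAs.

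Across members, the ratio between the 2 libraries of a group went with exon length at 3 h in both lines and at 6 h in VAL. It did so at 0 h in OCI-LY3 too, where the ratios were small, but not at 6 h in OCI-LY3. Exon length is that of all annotated exons of a gene merged. The 11 members with at least 5000 bases of exon, such as CENPE, CENPF, ASPM and MKI67, had a median log2 ratio of library 1 over library 2 of -0.18 at 3 h and 0.02 at 6 h of OCI-LY3, against 0.29 at 3 h and 0.58 at 6 h of VAL. The 32 shorter members had medians of 0.05 and 0.02 in OCI-LY3 and of -0.32 and -0.03 in VAL. At 0 h all 4 medians lay between -0.02 and 0.05 and the members' ratios between -0.12 and 0.10. Across the 43 members Spearman's rho of this ratio with exon length was -0.66 at 3 h and 0.02 at 6 h of OCI-LY3, with 0.70 and 0.60 for VAL. Across 16319 tested genes with a length the same rho was -0.24 and -0.01 for OCI-LY3, with 0.29 and 0.30 for VAL, given as a description, since genes share their libraries. At 0 h, where the ratios were small, the members' rho was 0.65 in OCI-LY3 and -0.18 in VAL. CENPF at 6 h in VAL held 209 CPM in library 1 and 92.7 CPM in library 2, and its log2 change there was -0.89 ± 0.28. The part of exon length in the changes was not tested.

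**Figure D4:**
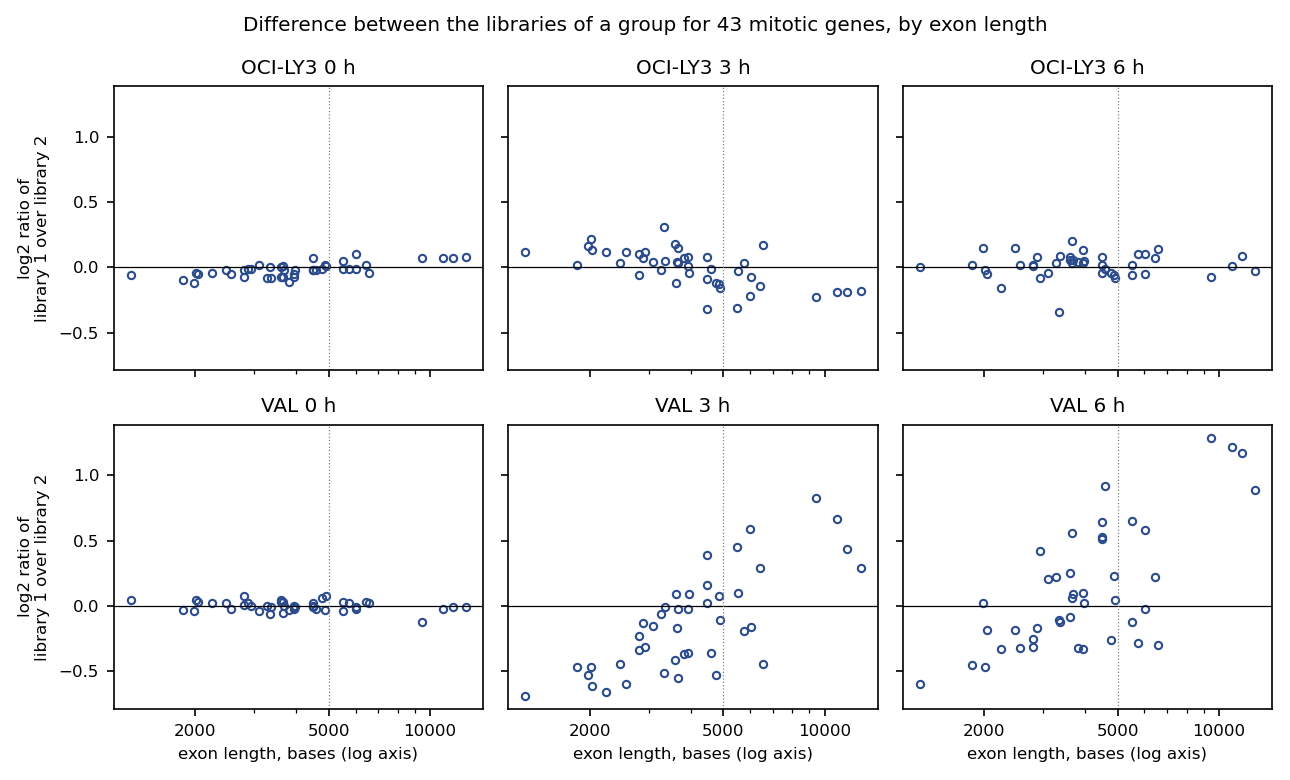
Log2 ratio of library 1 over library 2 of each group against exon length (log axis) for the 43 members, OCI-LY3 above and VAL below, with 5000 bases dotted. In VAL at 3 h and 6 h the 4 longest members lie above 0 and the shortest, UBE2C, below it, and at 0 h all members of both lines lie between -0.12 and 0.10.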

How the data were processed

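The authors deposited raw counts per gene for 12 poly(A)+ libraries; the sources used here name no aligner or counter, the build was GRCh38 and DESeq2 was used, per the submitters' processing notes. A deposited table of log2 values, made by steps the sources do not describe, served for 1 alternative. The kit named in the labels does not keep strand. From the counts, edgeR 4.0.16 (R 4.3.3) was run with TMM factors, its filter on low counts (16374 of 58233 genes tested) and a quasi-likelihood fit over 6 groups of line and time with 6 residual degrees of freedom. The p-values of 9 contrasts were adjusted by Benjamini-Hochberg over the genes tested, with calls at 0.05. The standard error of a change is its size over the root of its F value. Gene models came from GENCODE 29 and promoters from RefSeq GRCh38.p14. Levels per library are given for the 2 members of each role set with the smallest adjusted p in VAL at 6 h against 0 h and for members that rose; the 5 smallest adjusted p name the differences between lines, and up to 3 smallest in a comparison, with any that moved against the majority, name genes of the other lists. The 43 members and the other lists were chosen with earlier results of these data known. Alternatives covered scaling, filters, DESeq2 1.42.0, limma 3.58.1, the replicate block, leaving out libraries and the promoter window. The code was tested on simulated counts. Total counts were 23175082 to 39715536 per library.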

Additional observations from a re-analysis of the deposited data

Results flagged for a closer look

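The lines differed in the size of their change, as tested by the interaction of line and time in edgeR's quasi-likelihood fit (OCI-LY3 change minus VAL change, log2 ± SE, Benjamini-Hochberg adjusted p). At 3 h the difference was 1.04 ± 0.20 for AURKA (adjusted p = 0.0174), 0.96 ± 0.21 for KIF23 (adjusted p = 0.0285) and -0.61 ± 0.13 for KIF2C (adjusted p = 0.0236). Leaving out library 1 at 3 h of OCI-LY3 ended all 3. At 6 h it was 1.64 ± 0.21 for AURKA, the kinase of the spindle poles, 1.59 ± 0.29 for TTK, 1.54 ± 0.23 for CDC20, 1.47 ± 0.18 for CCNB2 and 1.40 ± 0.24 for SPC25. It was 1.34 ± 0.14 for BUB1, 1.29 ± 0.21 for KIF23, 1.22 ± 0.13 for FOXM1, 1.22 ± 0.24 for CCNB1, 1.2 ± 0.28 for CDC25C and 1.01 ± 0.22 for PLK1. Smaller differences were those of AURKB (0.85 ± 0.26, adjusted p = 0.034), NEK2 (0.53 ± 0.15, adjusted p = 0.0257), CCNA2 (0.51 ± 0.17, adjusted p = 0.0413) and DLGAP5 (0.42 ± 0.12, adjusted p = 0.0277). KIF2C, the centromeric kinesin, was the only member with a negative difference that passed (-0.66 ± 0.13, adjusted p = 0.00451). Lane and line cannot be told apart in these data.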

How the results depend on the processing

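With 2 libraries a group, p-values rest on a spread shared by all 6 groups, and where a library was left out the lone one left was assumed to vary like the rest. The main limit was scaling, which moves all genes together. In this paragraph counts are of members lower (higher for the differences between lines) and medians are log2. Here and below, shares of all tested genes were computed for the 6 scalings only, so counts from other fits stand without a background. In OCI-LY3 at 3 h the count was 14 and became 42 with mitochondrially encoded mRNA factors, 39 with ribosomal protein mRNA factors, 24 with each line fitted alone, 26 without the treated VAL libraries numbered 1 and 26 without those numbered 2, and 5 at 2-fold; the median became -0.09 with DESeq2 size factors, -0.41 with no composition factor, 0.10 with upper-quartile factors, and -1.32 and -0.89 with mitochondrial and ribosomal protein factors. At 3 h in OCI-LY3 66.1% and 48.6% of all tested genes were lower with mitochondrial and ribosomal protein factors. At 6 h the OCI-LY3 count was 19 with upper-quartile factors, against 21.4% of all tested genes, and 18 at 2-fold, against 21.8%. The median at 6 h was -0.77, -1.31, -0.42, -2.50 and -2.07 with the same 5 scalings. Between 3 h and 6 h in OCI-LY3 the count at 2-fold was 5, and the median -0.73 with no composition factor, -0.36 with upper-quartile, -0.99 with mitochondrial and -1.0 with ribosomal protein factors. In VAL at 3 h the count became 28, 43 and 37 with no composition factor, mitochondrial and ribosomal protein factors, and the median -0.65, -1.71 and -1.15. Lower with these were 34.2%, 70.9% and 49.7% of all tested genes. On the main scaling 8 members fell at 2-fold, against 15.9% of all tested genes. In VAL at 6 h the median was -1.65 with no composition factor, -0.84 with upper-quartile, -3.43 with mitochondrial and -2.47 with ribosomal protein factors. Between 3 h and 6 h in VAL the count at 2-fold was 16 and the median -1.53 with mitochondrial and -1.21 with ribosomal protein factors.

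For OCI-LY3 against VAL at 0 h the count was 21 with a minimum mean of 5 CPM, 20 without the treated VAL libraries of either number and 4 at 2-fold, and the median -0.22, -0.24, -0.27, -0.57 and 0.08 with DESeq2 size factors, no composition factor, upper-quartile, mitochondrial and ribosomal protein factors. The count of differences between lines at 3 h was 6, 10, 6, 0 and 6 with those 5 scalings, 9 with no low-count filter, 6 at a minimum of 5 CPM, 7 with the DESeq2 Wald test, 5 with limma-voom, 6 with limma on the deposited log2 table, 10 and 19 without the treated VAL libraries numbered 1 or 2, and 1 at 2-fold. At 6 h it was 26 and 23 without those libraries, and the median 0.97 and 0.56 with mitochondrial and ribosomal protein factors. The difference at 3 h passed as higher for 3.60%, 4.72%, 3.63%, 1.86% and 4.01% of all tested genes with the 5 scalings in the order above. Same-numbered libraries deviated together only at 3 h and 6 h of VAL (r = 0.5, against -0.04 to 0.06 for the other 5 pairs), so numbers were not taken as pairing. A replicate block gave 9 differences between lines at 3 h, and other counts within 1.5 times.

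Signs turned for the rises. With no composition factor, VAL 3 h changes were -0.03 for MAD2L1, -0.09 for TPX2, -0.01 for NUSAP1 and -0.13 for DLGAP5, and the OCI-LY3 6 h change of FOXM1 was -0.06. With mitochondrial factors OCI-LY3 values were -0.82 for NUF2, -0.64 for PTTG1 and -0.87 for PRC1 at 3 h, and -1.04 for BIRC5, -1.10 for NUF2, -0.89 for PTTG1, -1.11 for PRC1 and -1.25 for FOXM1 at 6 h; VAL values were -1.06 for MAD2L1, -0.83 for NUF2, -1.15 for TPX2, -1.05 for NUSAP1, -1.18 for DLGAP5, -1.04 for PRC1 and -1.01 for TOP2A at 3 h, and -1.54 for PRC1 at 6 h. With ribosomal protein factors OCI-LY3 values were -0.39 for NUF2, -0.19 for PTTG1 and -0.44 for PRC1 at 3 h, and -0.61 for BIRC5, -0.67 for NUF2, -0.46 for PTTG1, -0.68 for PRC1 and -0.82 for FOXM1 at 6 h; VAL values were -0.54 for MAD2L1, -0.27 for NUF2, -0.58 for TPX2, -0.51 for NUSAP1, -0.63 for DLGAP5, -0.47 for PRC1 and -0.41 for TOP2A at 3 h, and -0.72 for PRC1 at 6 h. Upper-quartile factors turned VAL 6 h falls of TPX2 (0.09) and NUSAP1 (0.12) and the OCI-LY3 6 h fall of TOP2A (0.22) positive.

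Leaving out 1 library at a time gave counts of 12 to 19 at 3 h, 25 to 32 at 6 h and 14 to 29 between them in OCI-LY3, 16 to 23, 32 to 36 and 28 to 37 in VAL, 11 to 17 at 0 h, and 0 to 12 and 10 to 18 for the differences at 3 h and 6 h.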
